A study of Mus musculus with 6 samples.

Results

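The Cyp1 and Cyp3a enzymes of the liver are cytochromes P450 that oxidise drugs, toxicants and endogenous steroids, and the genes examined here are these enzymes together with their shared electron donor and their best known transcriptional regulator. The 10 genes were chosen by name from the 24501 genes of the deposited table: Cyp1a1, Cyp1a2 and Cyp1b1, then Cyp3a11, Cyp3a13, Cyp3a25 and Cyp3a59, and then Por, Ahr and Arnt. All 10 were present and all 10 were abundant enough to be tested. RNA was sequenced from the livers of 6 male C57BL/6J mice that carried floxed Gata4 alleles, 3 labelled Gata4LKO and 3 labelled Control. The Gata4LKO mice received AAV8-Tbg-Cre, an adeno-associated virus in which the hepatocyte promoter Tbg drives Cre, so other liver cells keep their floxed alleles. The Control mice received an empty AAV8, and therefore differed from the Gata4LKO mice in the viral cargo as a whole. Injection was at 8 weeks of age and collection at 11 weeks, after 3 weeks on Western Diet and a 6 hour fast, in every mouse. A separate label gives 7 days from injection to collection, which cannot be matched with these ages, and the series text also mentions refed animals, which no sample label does.

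In the liver, the aryl hydrocarbon receptor AHR binds planar ligands, enters the nucleus, pairs with ARNT and activates Cyp1 genes. The xenobiotic receptors PXR and CAR, encoded by Nr1i2 and Nr1i3, pair with RXR and activate Cyp3a and Cyp2 genes. POR passes electrons from NADPH to every microsomal P450, so the enzymes depend on it. CYP1A2 is a constitutive enzyme of hepatocytes around the central vein, whereas CYP1A1 is scarce until AHR is activated, and CYP1B1 is made mainly outside hepatocytes. GATA4 is a zinc finger transcription factor that binds GATA motifs.

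The library labels were checked on Gata4 first. Its normalised read counts were 867, 848 and 895 in the libraries labelled Gata4LKO, against 704, 637 and 546 in Control. The count of the gene was thus not lower where the label says Gata4LKO, and all directions given here are by label: Gata4LKO and Control stand for the libraries labelled so. The log2 fold change was 0.47 (SE 0.10, limma adjusted p = 0.0641), and DESeq2 called it higher (adjusted p = 0.00726). A count over the whole gene does not show whether the floxed exons, which the labels do not name, were removed. Libraries held 33274223 to 37390345 reads. Albumin took 4.24% to 5.10% of reads in Gata4LKO libraries and 6.15% to 8.40% in Control libraries. The summed level of 10 hepatocyte markers was 2429133 to 2915661 normalised counts in Gata4LKO and 3198328 to 4294266 in Control. Albumin supplied much of that sum, at 1416056 to 1764097 in Gata4LKO and 2113346 to 3062816 in Control. The sum is therefore no measure of the list as a whole. Cyp2e1 and Glul, 2 of the 10, were higher in every Gata4LKO library than in any Control library. The other markers of the list had negative log2 fold changes. The summed level of 10 endothelial markers was 12203 to 15045 in Gata4LKO and 7943 to 9191 in Control. Over all genes tested, limma called 2.06%, edgeR 1.97% and DESeq2 9.48% at an adjusted p under 0.05, and 22.4% had an unadjusted limma p under 0.05. Of the 10 endothelial markers 5 rose and 0 fell by limma and edgeR. DESeq2 called 9 of them higher, and all 10 had an unadjusted limma p under 0.05. Of the hepatocyte markers 0 passed limma or edgeR, 1 had an unadjusted p under 0.05 and DESeq2 called 2 lower. Stellate and macrophage markers were also higher in sum in every Gata4LKO library, at 14133 to 16853 against 5113 to 12459 and at 9113 to 19066 against 3322 to 7681, with 0 of 10 past limma or edgeR in each list. At an unadjusted p under 0.05 there were 9 stellate and 10 macrophage markers, and DESeq2 called 1 and 7, all higher. Lymphocyte markers summed to 455 to 677 in Gata4LKO and 94.3 to 463 in Control, and cholangiocyte markers to 954 to 1381 in Gata4LKO and 1090 to 1453 in Control. In each of these 2 lists 0 passed limma or edgeR, and DESeq2 called 1 higher. At an unadjusted p under 0.05 there were 4 lymphocyte markers, all higher. The 2 such cholangiocyte markers differed in sign, with Krt19 lower and Sox9 higher. All 10 endothelial, all 10 stellate and all 10 macrophage markers were detected, none of them at 0 in all libraries. The part of these differences in the results below was not tested. In bulk tissue, fewer cells of a type and less RNA per cell cannot be told apart.

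The promoters of 6 enzymes are shown in pairs, to set the scarce Cyp1a1 beside the abundant Cyp1a2, the PXR target Cyp3a11 beside Cyp3a13, and the near-identical Cyp3a25 and Cyp3a59 beside each other. They are RefSeq sequences of build GRCm38.p6, the same assembly as mm10, read 5′ to 3′ on the strand of the gene. Each starts 250 bases before the RefSeq start and ends there or, where an annotated exon begins earlier, at that exon. Capitals mark GATA motifs (AGATAA and AGATAG and TGATAA and TGATAG), the core of the AHR and ARNT element (GCGTG), the nuclear receptor hexamers AGGTCA and AGTTCA, and the TATA box TATAAA, each searched on both strands.
Cyp1a1, chr9:57697363-57697612, plus strand: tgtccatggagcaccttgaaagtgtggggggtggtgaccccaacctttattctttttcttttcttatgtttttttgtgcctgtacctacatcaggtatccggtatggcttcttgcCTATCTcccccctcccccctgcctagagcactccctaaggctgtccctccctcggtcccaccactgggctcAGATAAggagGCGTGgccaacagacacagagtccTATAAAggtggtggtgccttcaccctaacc
Cyp1a2, chr9:57683704-57683905, minus strand: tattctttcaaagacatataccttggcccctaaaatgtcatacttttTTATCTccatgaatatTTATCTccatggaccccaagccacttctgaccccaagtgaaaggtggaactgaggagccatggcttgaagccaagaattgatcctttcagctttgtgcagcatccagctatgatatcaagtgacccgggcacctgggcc
Cyp3a11, chr5:145879965-145880104, minus strand: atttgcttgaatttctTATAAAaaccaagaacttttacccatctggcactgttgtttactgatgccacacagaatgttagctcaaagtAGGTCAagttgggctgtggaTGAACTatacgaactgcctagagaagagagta
Cyp3a13, chr5:137921620-137921869, minus strand: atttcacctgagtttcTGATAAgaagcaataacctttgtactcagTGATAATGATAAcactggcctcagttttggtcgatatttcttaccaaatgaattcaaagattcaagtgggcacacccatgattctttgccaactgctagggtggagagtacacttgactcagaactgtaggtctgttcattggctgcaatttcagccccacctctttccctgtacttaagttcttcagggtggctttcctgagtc
Cyp3a25, chr5:146009619-146009868, minus strand: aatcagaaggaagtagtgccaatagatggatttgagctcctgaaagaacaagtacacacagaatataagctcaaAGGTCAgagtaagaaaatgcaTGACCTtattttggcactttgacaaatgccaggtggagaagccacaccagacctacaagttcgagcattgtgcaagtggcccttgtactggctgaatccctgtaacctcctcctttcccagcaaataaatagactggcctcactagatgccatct
Cyp3a59, chr5:146079008-146079256, plus strand: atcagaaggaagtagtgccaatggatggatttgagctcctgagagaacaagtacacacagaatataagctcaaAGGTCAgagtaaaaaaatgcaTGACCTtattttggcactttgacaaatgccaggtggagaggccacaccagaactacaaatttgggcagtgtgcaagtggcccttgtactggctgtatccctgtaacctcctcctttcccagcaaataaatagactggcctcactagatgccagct

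No match of one motif overlapped a match of another kind. GATA motifs lay in the windows of Cyp1a1 (2 matches), Cyp1a2 (2) and Cyp3a13 (3), and 26.5% of all 32851 promoter windows of 250 bases in the RefSeq table hold at least 1. GCGTG was found once for Cyp1a1 and not for Cyp1a2, and 28.2% of all windows hold it. A pair of AGGTCA or AGTTCA hexamers stood in the windows of Cyp3a11, Cyp3a25 and Cyp3a59, and none in that of Cyp3a13. At least 1 is held by 24.2% of all windows, and the share with a pair was not counted. TATAAA, present in 12.4% of windows, lay 30 to 25 bases before the start of Cyp1a1, and 29 to 24 bases before that of Cyp1a2 in the stretch not printed. A further match lay 234 to 229 bases before the start of Cyp3a11. The windows of Cyp3a25 and Cyp3a59 were identical at 238 of 250 bases after global alignment (95.2%), while those of Cyp1a1 and Cyp1a2 were identical at 126. Promoter windows were also available for Cyp1b1, Por and Arnt, but the table used here held none for Ahr. Por had 3 GCGTG matches, and Cyp1b1 and Arnt 1 each. These matches describe letters in a short window and say nothing of binding.

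The test of all genes called none of the 10. By limma on log2(normalised count + 1), with Benjamini-Hochberg adjustment over 14385 genes and a threshold of 0.05, 0 of 10 were called, where 2.06% of all genes were (1.13% higher and 0.932% lower). EdgeR on the recovered reads also called 0 of 10, against 1.97% of all genes (1.13% higher and 0.848% lower). DESeq2 on the recovered reads called 2, Cyp1a2 and Cyp3a13, both lower in Gata4LKO, where it called 9.48% of all genes (5.97% higher and 3.51% lower). The authors' deposited table likewise holds an adjusted p under 0.05 for these 2 of the 10, where 9.41% of its genes are under 0.05. At an unadjusted limma p under 0.05 there were 4 members, Cyp1a2, Cyp3a11, Cyp3a13 and Cyp3a59, against 22.4% of all genes. For 3 members, 1 higher (Cyp3a59) and 2 lower (Cyp1a2 and Cyp3a13) in Gata4LKO, the libraries of the groups were free of overlap, as they were for 28.3% of all genes (15.0% higher and 13.4% lower). These shares do not set the 10 genes apart from the rest of the table, and the individual values are given below with that in mind.

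**Figure D1:**
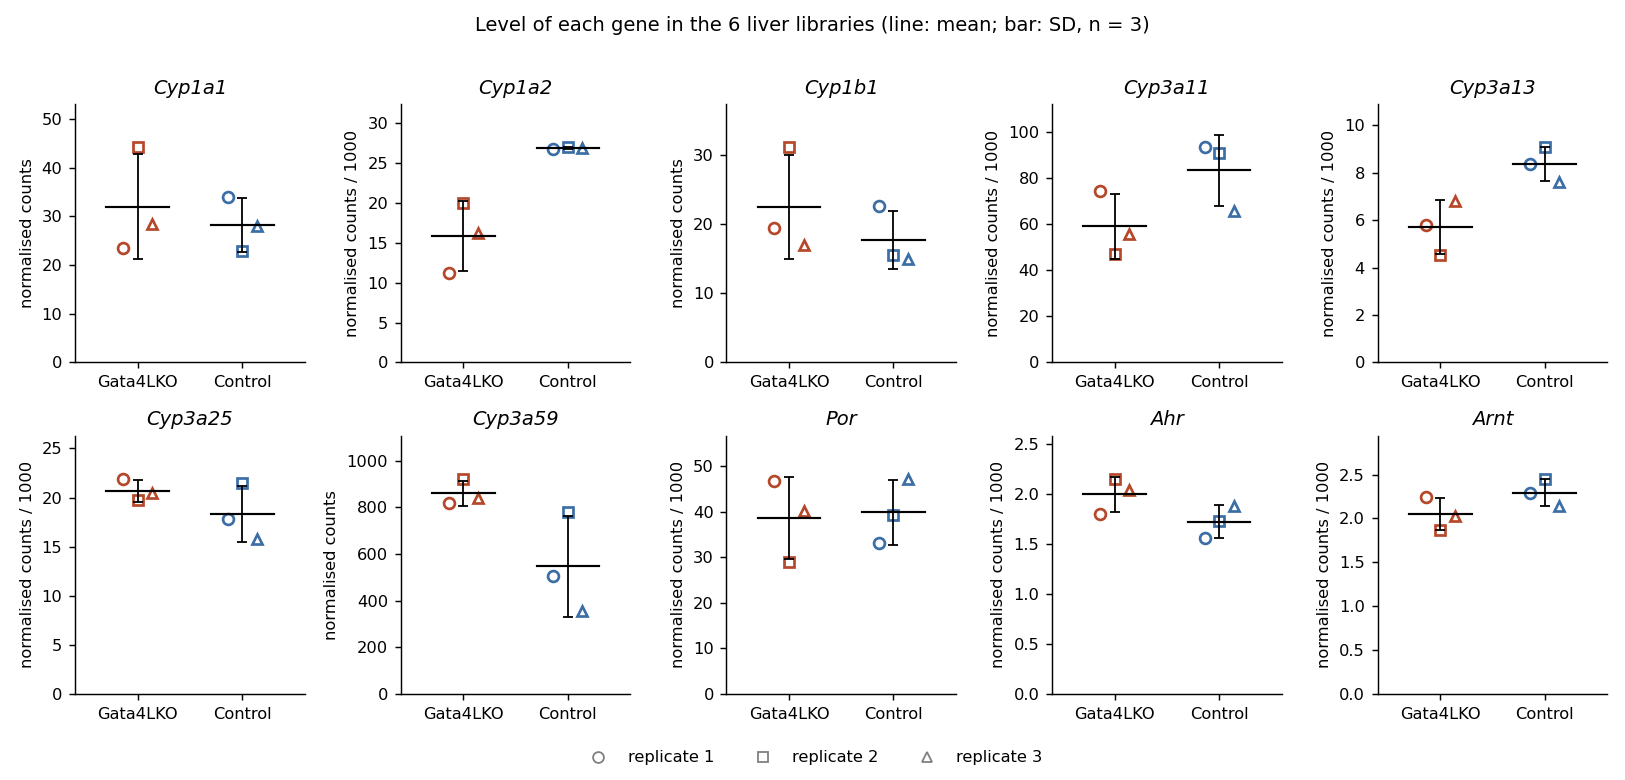
Normalised counts (y axes from 0, divided by 1000 where stated) of the 10 genes in each liver library, with the 3 Gata4LKO libraries left of the 3 Control libraries; symbols are replicates, lines are means and bars are SD. Cyp1a2 and Cyp3a13 lie lower in every Gata4LKO library than in any Control library and Cyp3a59 higher, while the other 7 genes overlap between the groups.

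Among the Cyp1 enzymes, Cyp1a2 carried nearly all of the reads. Cyp1a2 (ENSMUSG00000032310, chromosome 9, 57676937 to 57683703, minus strand, mm10) had 11196, 20018 and 16298 normalised counts in Gata4LKO livers, against 26785, 26978 and 26935 in Control livers. The groups did not overlap, and the 3 Control livers lay within a coefficient of variation of 0.377%, against 28.0% among the Gata4LKO livers. The means were 15837 ± 4429 and 26899 ± 101 (SD, n = 3 each), and the fold change from the log2 fit was 0.573. Its log2 fold change of -0.80 (SE 0.19) missed the threshold (limma adjusted p = 0.0721), as it did by edgeR (adjusted p = 0.0837), while DESeq2 called it (adjusted p = 0.00186). The lowest and highest adjusted p among the alternatives were 0.00186 and 0.189. The authors' deposited table gives it a log2 fold change of -0.76 with an adjusted p of 0.00147. Relative to the summed hepatocyte markers the groups overlapped, at 4.11, 8.24 and 5.59 Cyp1a2 counts per 1000 marker counts in Gata4LKO and 8.37, 6.28 and 7.81 in Control. This ratio was chosen after the values were seen. Albumin, itself lower in every Gata4LKO library, supplies much of its denominator, so the overlap is no measure of Cyp1a2 against the other hepatocyte markers.

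Cyp1a1 (ENSMUSG00000032315, chromosome 9, 57687928 to 57703824, plus strand), the neighbour of Cyp1a2 on the opposite strand, was scarce. It had 23, 44 and 30 reads in Gata4LKO and 33, 22 and 30 in Control, so the groups overlapped. Normalised, the means were 32.01 ± 10.8 and 28.3 ± 5.55 counts (SD, n = 3 each), with a log2 fold change of 0.14 (SE 0.31, limma adjusted p = 0.835). The sign turned negative with quantile normalisation and without Gata4LKO replicate 2. The number of Cyp1a2 counts per Cyp1a1 count was 476, 453 and 575 in Gata4LKO and 789, 1180 and 961 in Control. Its groups did not overlap, but it rests on 22 to 44 Cyp1a1 reads a library. The share of gene pairs whose ratio separates likewise was not counted. Cyp1b1 (ENSMUSG00000024087, chromosome 17, 79701537 to 79715061, minus strand) was lower still, with 19, 31 and 18 reads in Gata4LKO and 22, 15 and 16 in Control. Its log2 fold change was 0.31 (SE 0.34, limma adjusted p = 0.647). The stellate and endothelial markers given above were higher in the same Gata4LKO libraries, and their part in the Cyp1b1 values was not tested.

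The Cyp3a enzymes differed in the sign of their fold change, and none passed the limma test. Cyp3a11, the main CYP3A of mouse liver, and Cyp3a13 averaged lower in Gata4LKO livers, while Cyp3a25 and Cyp3a59 averaged higher. Cyp3a11 (ENSMUSG00000056035, chromosome 5, 145854426 to 145879964, minus strand) had 74510, 47177 and 55732 normalised counts in Gata4LKO and 93463, 91052 and 65872 in Control. Gata4LKO replicate 1 lay above Control replicate 3, so the groups overlapped. The means were 59140 ± 13981 and 83463 ± 15282 (SD, n = 3 each), and the log2 fold change of -0.51 (SE 0.21) did not pass (limma adjusted p = 0.205). It ranged from -0.69 without Gata4LKO replicate 1 to -0.36 without Gata4LKO replicate 2.

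Cyp3a13 (ENSMUSG00000029727, chromosome 5, 137892932 to 137921619, minus strand) lies apart from the other Cyp3a genes on the same chromosome and shared no stretch of 50 bases with any other annotated transcript. It had 5773, 4532 and 6805 normalised counts in Gata4LKO and 8357, 9060 and 7624 in Control. Every Gata4LKO library was below every Control library. The means were 5703 ± 1138 and 8347 ± 718 (SD, n = 3 each), and the fold change from the log2 fit was 0.676. The log2 fold change was -0.57 (SE 0.15), with adjusted p-values of 0.0845 by limma, 0.0952 by edgeR and 0.0104 by DESeq2, so only the last passed. Per 1000 summed hepatocyte marker counts it stood at 2.12, 1.87 and 2.33 in Gata4LKO and at 2.61, 2.11 and 2.21 in Control, which overlap. Here too albumin supplies much of the denominator, so the overlap is no measure of Cyp3a13 against the other hepatocyte markers.

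Cyp3a25 (ENSMUSG00000029630, chromosome 5, 145977194 to 146009618, minus strand), which lies in the same gene cluster as Cyp3a11, had 21898, 19739 and 20418 normalised counts in Gata4LKO and 17837, 21435 and 15736 in Control. Control replicate 2 lay among the Gata4LKO libraries. The log2 fold change was 0.18 (SE 0.12, limma adjusted p = 0.412). Within each library, the ratio of Cyp3a25 to Cyp3a11 counts was 0.294, 0.418 and 0.366 in Gata4LKO and 0.191, 0.235 and 0.239 in Control. That ratio does not depend on library scaling, and its groups did not overlap, as those of 28.3% of all single genes did not. It was chosen after the values were seen and so was not tested. The share of gene pairs whose ratio separates likewise was not counted, and the separation is no result about this pair. Cyp3a11 made up 65.2% to 72.3% of the counts of the 4 Cyp3a genes in Gata4LKO and 73.5% to 77.8% in Control.

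Cyp3a59 (ENSMUSG00000061292, chromosome 5, 146079257 to 146113287, plus strand) had 820, 921 and 839.8 normalised counts in Gata4LKO and 506, 780 and 355 in Control. The groups did not overlap, although Control replicate 2 stood close to the Gata4LKO range. The means were 861 ± 53.7 and 547 ± 216 (SD, n = 3 each). The fold change from the log2 fit was 1.65, and its log2 value of 0.73 (SE 0.25) missed the threshold (limma adjusted p = 0.148). Without Control replicate 2 it passed limma, at 1.02 on the log2 scale (adjusted p = 0.0271), and without Control replicate 3 it stood at 0.45 (adjusted p = 0.277). Its counts amounted to 3.75%, 4.67% and 4.11% of those of Cyp3a25 in Gata4LKO and to 2.84%, 3.64% and 2.26% in Control. Of the 50-base stretches in Cyp3a59 transcripts, 26.8% also occur in Cyp3a25 and 30.0% in any other gene, so some of its reads may come from the far more abundant Cyp3a25. Cyp3a25 in turn shared 26.8% of its stretches, mostly with Cyp3a59, and Cyp3a11 shared 6.73%. How reads with several matches were counted is not given in the sources used here, and values of Cyp3a25 and Cyp3a59 are uncertain to that extent.

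**Figure D2:**
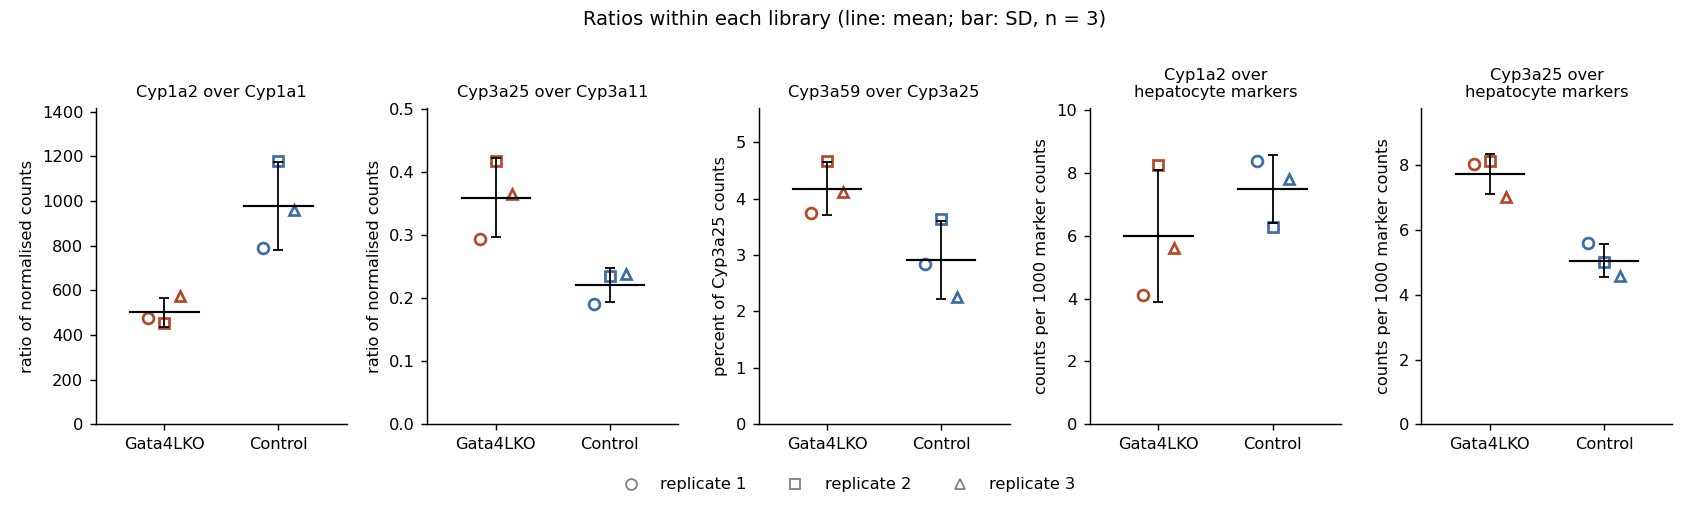
Ratios of normalised counts within each library (y axes from 0), Gata4LKO left of Control, with means as lines and SD as bars: Cyp1a2 over Cyp1a1, Cyp3a25 over Cyp3a11, Cyp3a59 as a percentage of Cyp3a25, and Cyp1a2 and Cyp3a25 per 1000 summed counts of 10 hepatocyte markers. The first 3 ratios and the last do not overlap between the groups. For the last, 50.4% of all genes lie likewise higher in Gata4LKO, and for the first 3 no share of gene pairs was counted. Cyp1a2 per 1000 marker counts overlaps, with Gata4LKO replicate 2 at 8.24 above Control replicate 2 at 6.28. Albumin supplies much of the marker counts, so that overlap is no measure of Cyp1a2 against the other markers.

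Per hepatocyte marker count, Cyp3a25 stood at 8.03, 8.13 and 7.00 counts per 1000 marker counts in Gata4LKO and at 5.58, 4.99 and 4.56 in Control, and Cyp3a59 at 0.301, 0.379 and 0.288 against 0.158, 0.182 and 0.103, both without overlap. Cyp3a11 overlapped on that scale, at 27.3, 19.4 and 19.1 in Gata4LKO and 29.2, 21.2 and 19.1 in Control. On this scale 51.4% of all genes tested were free of overlap, 50.4% higher and 0.918% lower in Gata4LKO. The marker sum itself, much of it albumin, was lower in every Gata4LKO library. The separation of Cyp3a25 and Cyp3a59 per marker count is therefore near the background and is no result about these genes.

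Among the Cyp3a genes outside the 10, 2 could be tested, and neither passed by limma, edgeR or DESeq2. An unadjusted limma p under 0.05 was found for 1, and for 22.4% of all genes. Cyp3a16 had 28.6, 23.1 and 32.1 normalised counts in Gata4LKO and 63.8, 56.1 and 33.6 in Control, with a log2 fold change of -0.81 (SE 0.30, limma adjusted p = 0.166). Cyp3a57 had 12.3, 19.1 and 17.0 in Gata4LKO and 15.4, 9.35 and 8.41 in Control (0.53, SE 0.37, limma adjusted p = 0.437). Cyp3a41b, Cyp3a44 and Cyp3a63-ps were below the filter of a mean of 10 normalised counts, and Cyp3a41a was not analysed here.

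Por (ENSMUSG00000005514, chromosome 5, 135670033 to 135735326, plus strand), the electron donor, had 46670, 28861 and 40041 normalised counts in Gata4LKO and 33103, 39136 and 47148 in Control, ranges that lie almost on top of each other. The means were 38524 ± 9001 and 39796 ± 7046 (SD, n = 3 each), with a log2 fold change of -0.06 (SE 0.20, limma adjusted p = 0.897). The sign of that value turned positive with quantile normalisation, without Gata4LKO replicate 2 and without Control replicate 3. Counts of Por per count of the 7 P450 members were 0.409, 0.312 and 0.3999 in Gata4LKO and 0.225, 0.262 and 0.404 in Control, with Control replicate 3 inside the Gata4LKO range.

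Ahr and its partner Arnt also overlapped between the groups. Ahr (ENSMUSG00000019256, chromosome 12, 35497974 to 35535038, minus strand) had 1798, 2147 and 2034 normalised counts in Gata4LKO and 1556, 1730 and 1878 in Control. The log2 fold change was 0.21 (SE 0.10, limma adjusted p = 0.255). An antisense lincRNA, Gm48236, overlaps its exons and was itself given 1 to 6 reads a library. Reads of the overlap cannot be told apart if the counting ignored strand. Arnt (ENSMUSG00000015522, chromosome 3, 95434388 to 95497240, plus strand) had 2240, 1874 and 2027 in Gata4LKO and 2291, 2451 and 2140 in Control, with a log2 fold change of -0.17 (SE 0.09, limma adjusted p = 0.318). The 2 fold changes differed in sign, and the within-library ratio of Ahr to Arnt counts was 0.803, 1.146 and 1.003 in Gata4LKO and 0.679, 0.706 and 0.878 in Control, which overlap.

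**Figure D3:**
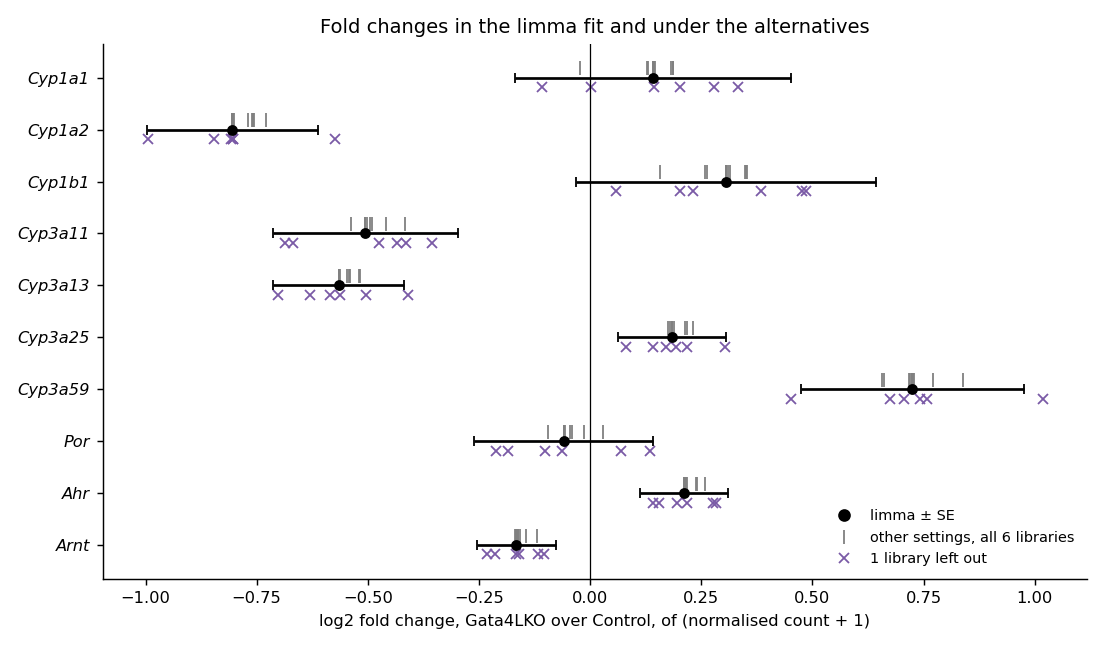
Log2 fold change of Gata4LKO over Control on the log2(normalised count + 1) scale for the 10 genes: black points with bars are the limma value ± SE, grey ticks the other settings on all 6 libraries and purple crosses the fits that leave out 1 library. Cyp1a2, Cyp3a11 and Cyp3a13 stay below 0 and Cyp3a25, Cyp3a59 and Ahr above 0 under every setting drawn, as do Arnt below and Cyp1b1 above it, whereas Cyp1a1 and Por cross 0.

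Compared per kilobase of annotated exon, the 10 genes fell into an abundant, a middle and a scarce set. In the Gata4LKO livers the order of mean normalised counts per kilobase was Cyp3a11 (11612 ± 2745), Cyp3a25 (9930 ± 530), Por (9581 ± 2239), Cyp1a2 (7868 ± 2200) and Cyp3a13 (1929 ± 385). In the Control livers it was Cyp3a11 (16388 ± 3001), Cyp1a2 (13363 ± 50.4), Por (9897 ± 1752), Cyp3a25 (8803 ± 1384) and Cyp3a13 (2824 ± 243), all SD with n = 3. Cyp1a2 was thus number 4 in Gata4LKO and number 2 in Control, and Cyp3a25 number 2 in Gata4LKO and number 4 in Control. In Gata4LKO the ranges of the first 4 genes overlapped those of their neighbours in this order: Cyp3a11 ran from 9263 to 14630, Cyp3a25 ran from 9476 to 10513, Por from 7178 to 11607 and Cyp1a2 from 5562 to 9944. In Control, Cyp1a2 at 13306 to 13402 lay inside the range of Cyp3a11, 12934 to 18351, and above that of Por, 8233 to 11725. Cyp3a59, Ahr and Arnt formed the middle set at 256 to 430 per kilobase in the Gata4LKO means and 273 to 286 in the Control means. Cyp1a1 and Cyp1b1 were at 11.5 and 3.86 in Gata4LKO and at 10.1 and 3.03 in Control. The length of Cyp3a11 includes exons of every annotated transcript, 5093 bases in all, which lowers its value relative to the others.

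Genes of the AHR pathway were examined next. Of 8 tested members of the AHR complex and its repressors, 0 were higher and 0 lower by limma, which called 2.06% of all genes. At an unadjusted limma p under 0.05 there was 1, against 22.4% of all genes. DESeq2 called 1 higher, where it called 5.97% of all genes higher, and edgeR called 0. The median log2 fold change of the 8 was 0.11, against -0.01 over all genes. Hsp90aa1, a chaperone that holds AHR in the cytoplasm, had 784, 1146 and 1250 normalised counts in Gata4LKO and 870, 552 and 646 in Control (0.62, SE 0.22, limma adjusted p = 0.151). Ahrr, the AHR repressor and itself an AHR target, was below the filter, with 8, 6 and 13 reads in Gata4LKO and 0, 1 and 1 in Control. When no filter was applied, the only setting that gave it a value, limma called it higher (adjusted p = 0.0493). That call lies just under the threshold of 0.05 and rests on 0 to 13 reads a library. The share of all genes called in that setting is not reported here. Ahrr was singled out after its values were seen.

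Outside the Cyp1 family, 10 of 14 listed AHR battery genes could be tested, and 0 were higher and 0 lower by limma or edgeR. Those called 2.06% and 1.97% of all genes. DESeq2 called 3 higher, where it called 5.97% of all genes higher. At an unadjusted limma p under 0.05 there were 5, against 22.4% of all genes. The median log2 fold change of the 10 was 0.01, with values on both sides of 0. For 4 of the 10 the groups did not overlap, as for 28.3% of all genes. The 2 named here had the smallest p-values of the list. Nfe2l2, which encodes the antioxidant regulator NRF2, had 3485, 3235 and 3413 normalised counts in Gata4LKO and 2669, 2780 and 2330 in Control, without overlap (0.38, SE 0.08, limma adjusted p = 0.0616). Cd36, a fatty acid translocase that is also expressed by macrophages and endothelium, had 2949, 1365 and 1299 in Gata4LKO and 606, 732 and 343 in Control, also without overlap (1.70, SE 0.37, limma adjusted p = 0.0641). The endothelial and macrophage markers given above moved in the same direction, and their part in the Cd36 values was not tested.

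Of the xenobiotic receptors and their partners, all 12 were tested, and 0 were higher and 0 lower by limma, edgeR or DESeq2. Over all genes these called 2.06%, 1.97% and 9.48%. At an unadjusted limma p under 0.05 there was 1, against 22.4% of all genes. The median log2 fold change of the 12 was -0.00. Nr1i2 had 3756, 2163 and 2511 normalised counts in Gata4LKO and 2631, 2745 and 2947 in Control, so that the Gata4LKO libraries lay on both sides of the Control range. Nr1i3 varied little among the 6 libraries, with 18130, 19866 and 19738 in Gata4LKO and 19481, 18520 and 17764 in Control. These 2 were named because they encode PXR and CAR. The smallest p-value of the list belonged to Rxrb, an RXR subtype, with a log2 fold change of -0.17 (SE 0.07, limma adjusted p = 0.212).

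The PXR and CAR target genes outside Cyp3a had calls in both directions. Of 23 tested, 2 rose and 3 fell by limma and 18 did not pass, where limma called 2.06% of all genes, and the median log2 fold change was -0.11. EdgeR called 3 higher and 3 lower, where it called 1.97% of all genes. DESeq2 called 4 higher and 5 lower, where it called 9.48% of all genes. At an unadjusted limma p under 0.05 there were 11, against 22.4% of all genes. Among those that fell, Cyp2c29, an abundant CAR-responsive P450, had 23197, 14659 and 19626 normalised counts in Gata4LKO and 48966, 56640 and 35967 in Control (-1.30, SE 0.21, limma adjusted p = 0.0312). Cyp2c55, which CAR and PXR ligands induce, had 2.05, 1.004 and 4.72 in Gata4LKO and 31.9, 76.9 and 81.3 in Control (-4.19, SE 0.53, limma adjusted p = 0.0163). It passed the filter on low values through the Control libraries, where it is high, and was not tested with the filter at a mean of 50. Ces2a, a carboxylesterase that hydrolyses drugs, had 3624, 3174 and 2874 in Gata4LKO and 5805, 6135 and 5604 in Control (-0.86, SE 0.09, limma adjusted p = 0.0121). The 2 that rose encode export pumps. Abcc4 had 591, 247 and 298 in Gata4LKO and 90.5, 88.3 and 67.3 in Control (2.10, limma adjusted p = 0.0280). Abcc3 had 17363, 14138 and 16001 in Gata4LKO and 11592, 10122 and 9895 in Control (0.59, limma adjusted p = 0.0390). Other export pumps of the list did not pass, among them Abcc2 (0.03, limma adjusted p = 0.897) and Abcb1a (-0.70, limma adjusted p = 0.297), both named after their values were seen. The 5 calls differed in sign. Reads of Cyp2c29 and Cyp2c55 may be shared with other Cyp2c genes.

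Of 21 tested genes of electron transfer and heme supply, limma and edgeR called 1 higher, Cpox, and 0 lower. Over all genes limma called 2.06% and edgeR 1.97%. The median log2 fold change of the 21 was -0.07. DESeq2 called 1 higher and 1 lower, where it called 9.48% of all genes. The lower one was Hmox2, a heme oxygenase (DESeq2 adjusted p = 0.0286, limma adjusted p = 0.0740). At an unadjusted limma p under 0.05 there were 3, against 22.4% of all genes. Cpox, coproporphyrinogen oxidase of the heme pathway, had 10706, 9097 and 10239 normalised counts in Gata4LKO and 6551, 6128 and 5729 in Control (0.71, SE 0.09, limma adjusted p = 0.0160). In the pericentral list, which covers the zone where CYP1A2 is made, 2 of 12 rose and 0 fell by limma and edgeR. Those called 2.06% and 1.97% of all genes. The median log2 fold change of the list was 0.18. DESeq2 called 3 higher, where it called 5.97% of all genes higher, and 4 had an unadjusted limma p under 0.05, against 22.4% of all genes. Slc13a3, a dicarboxylate transporter, had 1951, 2031 and 1687 in Gata4LKO and 922, 1234 and 879 in Control (0.91, limma adjusted p = 0.0285). Tbx3, a transcription factor downstream of WNT, had 2581, 3815 and 3264 in Gata4LKO and 1832, 1903 and 2076 in Control (0.72, limma adjusted p = 0.0489). None of the 8 genes called in these lists kept its call in every fit that left out 1 library. Ces2a, for example, stood at a limma adjusted p of 0.0517 without Gata4LKO replicate 3. Without the intensity trend in limma none of the 8 passed.

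**Figure D4:**
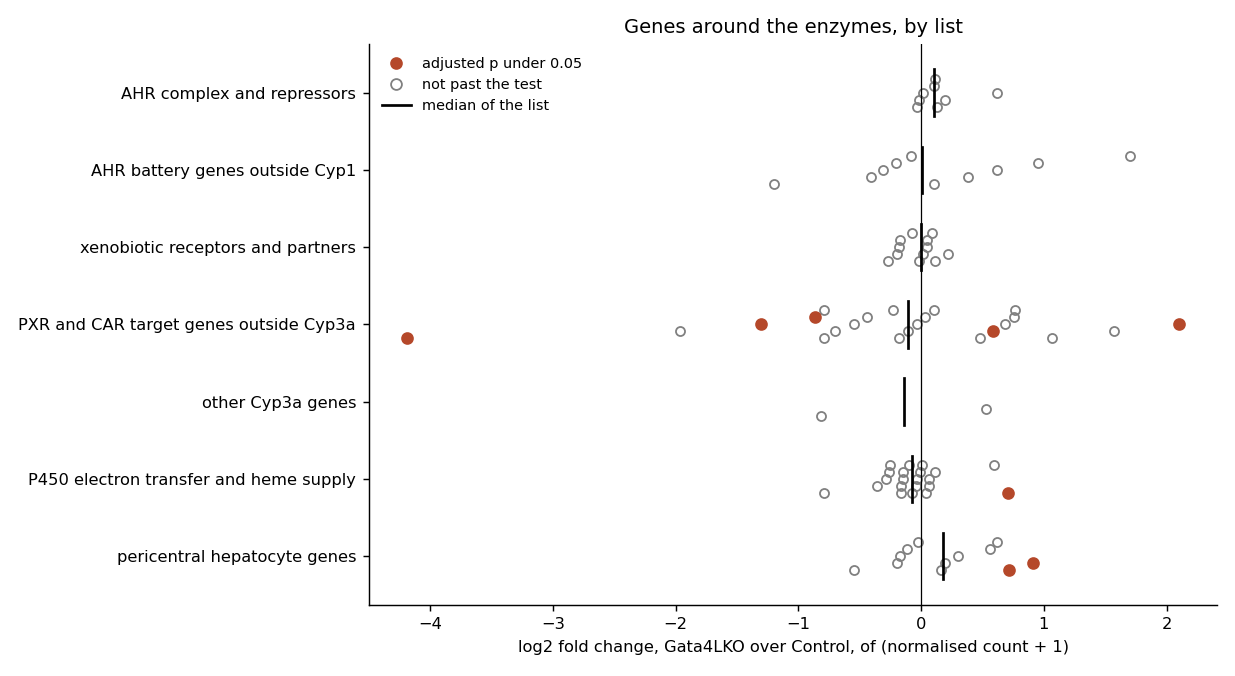
Log2 fold change of Gata4LKO over Control on the log2(normalised count + 1) scale for each tested gene of 7 lists around the enzymes, with filled points for genes past an adjusted p of 0.05 and a bar at each list's median. The 5 calls among PXR and CAR targets lie on both sides of 0, and the 3 remaining calls, Cpox, Slc13a3 and Tbx3, lie above it.

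The genes most like each enzyme across the 6 libraries were ranked by Pearson correlation of log2(normalised count + 1) among 10249 genes with a mean of at least 100, as a description only. Cyp1a2 was most like Anks4b (r = 0.999), Acvr1b (0.996) and Whamm (0.992). Anks4b had 1521, 1989 and 1794 normalised counts in Gata4LKO and 2230, 2225 and 2246 in Control. It was picked by r over these same libraries, so the tight Control values and the Gata4LKO order are shared by selection. Cyp3a11 was most like Tmem131l (0.992), Gm34934 (0.989) and Phactr4 (0.985), and Cyp3a25 most like Mme (0.992), Gnaq (0.984) and Spred2 (0.981). Por was most like Akt1 (0.992), Sptan1 (0.976) and Trak1 (0.975). Ahr was most like Phka1 (0.993), Nuggc (0.992) and Swsap1 (0.973). No other member was among the 3 nearest genes of any of these 5. The libraries behind each r hold both groups, so a shared group difference enters it.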

How the data were processed

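Liver RNA of 6 mice was sequenced. Per the submitters' processing notes, FastQC, STAR 2.6.0c, DESeq2 and mm10 were used; which counter and strand setting followed is not given in the sources used here. The authors deposited normalised counts (a signal unit: gene counts divided by a library factor) for 24501 genes, and a table of their own comparison with a log2 fold change and an adjusted p-value per gene. In every library 100.0% of values were whole multiples, within 0.1 read, of 1 step, so whole reads were recovered; they totalled 33274223 to 37390345 per library. No pair among the 15 pairs of libraries agreed within sampling noise (chi-square per degree of freedom at least 28.2). That lowest value was between Gata4LKO replicates 2 and 3, from which Gata4LKO replicate 1 stood at 81.4 and 72.1. From Control replicates 1, 2 and 3 it stood at 71.0, 101 and 85.5. Gata4LKO replicate 1 was thus no closer to its own group than to Control replicate 1.

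Genes with a mean of at least 10 (14385) were tested in R 4.3.3 with limma 3.58.1 on log2(normalised count + 1), with an intensity trend, two-sided, and called at a Benjamini-Hochberg adjusted p under 0.05. The log scale with a pseudocount understates the change of low genes. edgeR 4.0.16 (quasi-likelihood) and DESeq2 1.42.0 on the recovered reads, other scalings, filters and pseudocounts, and fits without each library were alternatives. A permutation over 3 against 3 libraries cannot go below p = 0.1. The p-values set the difference between the groups against the spread between mice within them. No label states separate cages, litters or batches, so any that went with the group cannot be told apart from it. Replicate numbers follow accession order and pair no animals.

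Members and lists were chosen with earlier results of these data known. Named genes were the 10 members, Gata4, in each list those past the test or otherwise the 2 with the smallest p, and the 3 genes most correlated with each of 5 members. Some genes that this rule names are not reported here. Nr1i2, Nr1i3, Ahrr, Abcc2, Abcb1a and Hmox2 were added after their values were seen, as were the ratios. Gene positions are from GENCODE M21, where 24480 gene IDs matched, and promoters from RefSeq, where 9 of 10 members matched. Shared sequence was counted over 50-base stretches of annotated transcripts.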

Additional observations from a re-analysis of the deposited data

How the results depend on the processing

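The number of genes past the threshold was 296, with 162 higher and 134 lower. It was 458 with equal library sums (328 higher, 130 lower), 25 with limma without the trend, 841 with library weights and 1364 with DESeq2. Fits without 1 library gave 27 to 792, the lowest without Gata4LKO replicate 3 and the highest without Control replicate 2. The cause was not tested. Of the 10 enzymes and regulators 0 passed, against 2 with DESeq2 and 0 to 1 without 1 library, the 1 being Cyp3a59 without Control replicate 2. The log2 fold change of Cyp1a1 changed sign to -0.022 with quantile normalisation and ranged from -0.11 to 0.33 without 1 library. That of Por changed sign to 0.029 with quantile normalisation and ranged from -0.21 to 0.13 without 1 library. That of Nr1i2 changed sign to 0.027 with equal library sums, 0.024 with edgeR and 0.020 with DESeq2, and ranged from -0.25 to 0.15 without 1 library. Over the 10 genes, 170 alternative values kept direction and side of the threshold, 3 came to pass it and 5 changed sign. A filter at a mean of 50 gives no value for Cyp1a1 and Cyp1b1. At 15 to 44 reads a library, counting error limits what these 2 genes can show. No paired analysis was possible because the titles carry different animal numbers and the replicate numbers, given in accession order, pair no mice.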
